A study of Rattus norvegicus with 12 samples.

Results

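The genes of the eukaryotic translation initiation factors were examined in the ganglionic eminences of rat embryos that carry mutant human huntingtin and of wild-type embryos. A gene was a member if a probe set was annotated with that gene alone and its symbol began with Eif and a digit. The eIF2 kinases Eif2ak1 to Eif2ak4, and the eIF2 gamma subunit genes Eif2s3, Eif2s3x and Eif2s3y, were left out. This gave 39 genes, read by 40 probe sets, of 14506 genes in all. Each was represented by its probe set with the highest mean, and only Eif3h had a second one. Genes such as Eif1, Eif3f, Eif3g, Eif3m, Eif4a3, Eif4g1 and Eif5a2 were not analysed here.

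The study took tissue at embryonic day 14 from 12 embryos, with a separate array for each. Of these, 6 were homozygous for BACHD, a transgene with full-length human huntingtin and 96 CAG repeats, and 6 were wild type. The embryos came from 3 transgenic dams, all dissected on 1 day, and were genotyped on DNA and on transcripts, and the dam and sex of each embryo were not used here. Medial and lateral eminences were pooled for each embryo, and the labels do not name the promoter that drives the transgene. Values are log2 intensities, so a difference of 1 means a doubling, and differences are homozygous minus wild type throughout. In such whole tissue, fewer cells of a type and less RNA per cell cannot be told apart.

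Initiation factors bring the initiator tRNA, the small ribosomal subunit and the mRNA together and select the start codon. The factor eIF2 carries the initiator tRNA, eIF2B reloads eIF2 with GTP, eIF3 is the large scaffold on the small subunit, and eIF4F binds the cap of the mRNA. The factors eIF1 and eIF1A hold the scanning subunit open until the start codon is met, and eIF5 and eIF5B complete the joining of the large subunit. Growing neural progenitors use this machinery heavily, and phosphorylation of eIF2 is the common output of the stress kinases.

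Pairwise correlations of the arrays across probe sets were 0.994 to 0.998, but the array medians differed by genotype. Wild-type medians spanned 7.673 to 7.705. Homozygous 1 lay within that span at 7.690, and all other homozygous medians lay above it, at 7.709 to 7.755. With arrays centred on their medians, every difference was lower by the same amount, and the members' median difference moved from -0.0210 to -0.0589. Sign counts and median differences below are without centring unless stated, and depend on this choice. Of 9 measured marker genes of the eminences, such as Dlx1, Gad2 and Nkx2-1, all lay above the median probe set. So did all 5 pallial, 5 endothelial and 2 red cell genes, 3 of 5 microglial and 2 of 4 meningeal genes, and none of 4 choroid plexus genes, so this check shows eminence transcripts but not their purity. None of 34 measured markers of the eminences, pallium, choroid plexus, vessels, microglia, red cells and meninges passed the test used below. Of them, 9 had an unadjusted p under 0.05 in limma, where 15.1% of all genes did. Cdh5 of the vessels stood at 0.15 ± 0.0332 (SE, adjusted p = 0.0641 in limma) and Nkx2-1 of the eminences at 0.16 ± 0.0403 (adjusted p = 0.108). In both, the groups did not overlap. By sign, 5 eminence genes stood above and 4 below 0, and 4 vessel genes above and 1 below. The pallial genes had a median difference of -0.25 over 5 genes. Of these, 4 stood below 0, with Slc17a6 at -0.01, and 1 above, Emx2 at 0.08. The mean level of the 5 genes was 9.35 to 9.77 (wild type) and 9.35 to 9.49 (homozygous). Of the 2 red cell genes, Hbb for beta globin stood at -0.49 ± 0.147 (SE), but Alas2 at -0.04 ± 0.107. The mean level of the 2 genes was 9.03 to 9.84 (wild type) and 8.86 to 9.14 (homozygous). Their part in the results below was not tested.

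Of the 39 genes 2 changed, and both fell: Eif1ax, which encodes the X-linked form of eIF1A, and Eif3j, which encodes a loosely bound subunit of eIF3. As background, eIF1A and eIF3j both sit near the decoding centre of the small ribosomal subunit. The 2 genes make up 5.13% of the members, against 0.469% of all genes called in either direction by their brightest probe set. Bright genes are the closer background, as 30 of the 39 members lay in the brightest 25% of genes. Calls at an adjusted p of 0.05 were not counted among those bright genes. At an unadjusted p under 0.05 in limma, 21.8% of them stood lower or higher, against 15.1% of all genes. Lower alone stood 10.6% of them, against 5.93% of all genes. Over all probe sets, 0.199% were called lower and 0.226% were called higher, and no member was called higher. Calls were made with limma at an adjusted p of 0.05 over all 29214 probe sets. The other 37 genes did not pass, and 6 of them had an unadjusted p under 0.05.

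Eif1ax ranged from 11.11 to 11.23 in wild-type embryos, with a median of 11.19. In homozygous embryos it ranged from 10.97 to 11.04, with a median of 11.03. All 6 homozygous values lay below all 6 wild-type values. The mean fell from 11.18 ± 0.0451 to 11.02 ± 0.0276 (SD, n = 6 each), a difference of -0.16 ± 0.026 (SE). On the linear scale the level fell by 10.3% (95% confidence interval of the change -13.7% to -6.72%). The adjusted p was 0.0273 in limma.

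Eif3j ranged from 10.74 to 10.84 in wild-type embryos, with a median of 10.81. In homozygous embryos it ranged from 10.58 to 10.71, with a median of 10.62. The groups again did not overlap, with homozygous 1 and 5 closest to the wild-type range. The mean fell from 10.80 ± 0.0391 to 10.64 ± 0.0527 (SD, n = 6 each), a difference of -0.17 ± 0.0300 (SE). On the linear scale the level fell by 10.996% (95% confidence interval of the change -14.9% to -6.95%). The adjusted p was 0.0345 in limma.

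Eif1a, the autosomal gene for eIF1A, also showed no overlap between the groups but did not pass the test. Its wild-type values ran from 10.78 to 10.86, with a median of 10.80, and its homozygous values from 10.64 to 10.77, with a median of 10.72. The difference was -0.10 ± 0.0290 (SE, adjusted p = 0.134 in limma, and 0.0468 with arrays centred on their medians). Thus 3 members, or 7.69%, had all homozygous values below all wild-type values, where 0.944% of all genes did. This share was not counted among the bright genes. Eif1ax and Eif1a encode closely related proteins, and 1 pseudogene is named after each in the RefSeq table, so their probes may share transcripts and the 2 values may not be independent. No pseudogene named after Eif3j is in that table. In all, 23 of the 39 members have at least 1 pseudogene named after them, led by Eif5 with 11, Eif4e with 10 and Eif4a1 with 8, and their values are uncertain where probes are shared.

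**Figure D1:**
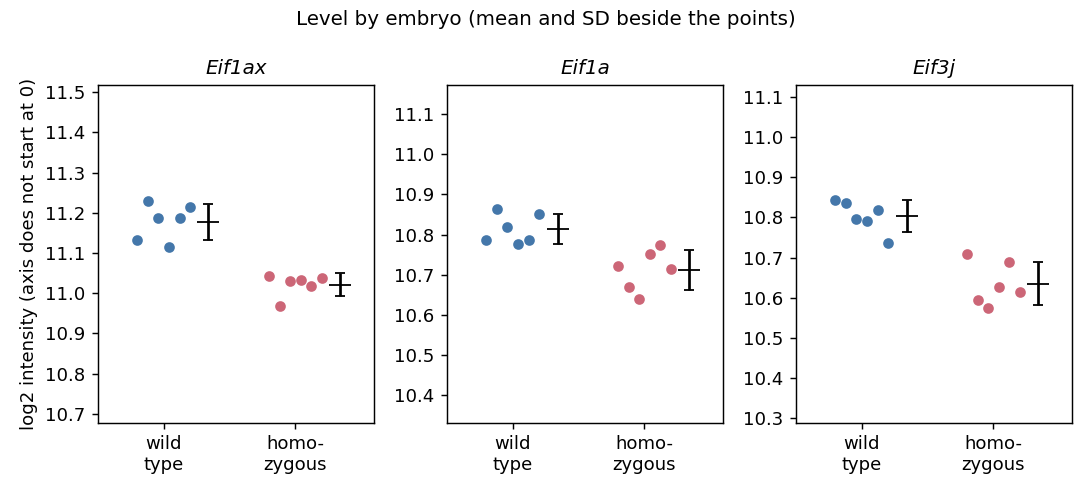
Log2 intensity (vertical axes, which do not start at 0) of Eif1ax, Eif1a and Eif3j in each of the 6 wild-type (blue) and 6 homozygous (red) embryos, with mean and SD in black. All homozygous points lie below all wild-type points in each panel; Eif1ax and Eif3j passed the test and Eif1a did not.

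The calls for Eif1ax and Eif3j lay close to the threshold. Without 1 embryo, Eif1ax had an adjusted p between 0.0343 and 0.0791 and did not pass without wild type 5 (0.0621) or 6 (0.0643) or without homozygous 1 (0.0573), 2 (0.0658), 3 (0.0791), 4 (0.0720) or 5 (0.0722). Eif3j passed only without wild type 3 (0.0385) and stood between 0.0505 and 0.0936 without any other single embryo. Their differences stayed between -0.17 and -0.15 for Eif1ax and between -0.18 and -0.16 for Eif3j. Neither changed direction with arrays centred on their medians, quantile normalization or cyclic loess, and both passed in all 3. Without an intensity trend in the fit neither passed (adjusted p = 0.0837 and 0.0916), nor with the difference between dim and bright probe sets as a covariate (0.0512 and 0.0568). As Eif1ax is X-linked, the level of Eif2s3, another X-linked gene, is given beside it: 12.51 to 12.90 (wild type) and 12.53 to 12.88 (homozygous). With that level as a covariate Eif1ax stood at -0.16 (adjusted p = 0.0525) and Eif3j at -0.18 (adjusted p = 0.0460).

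**Figure D2:**
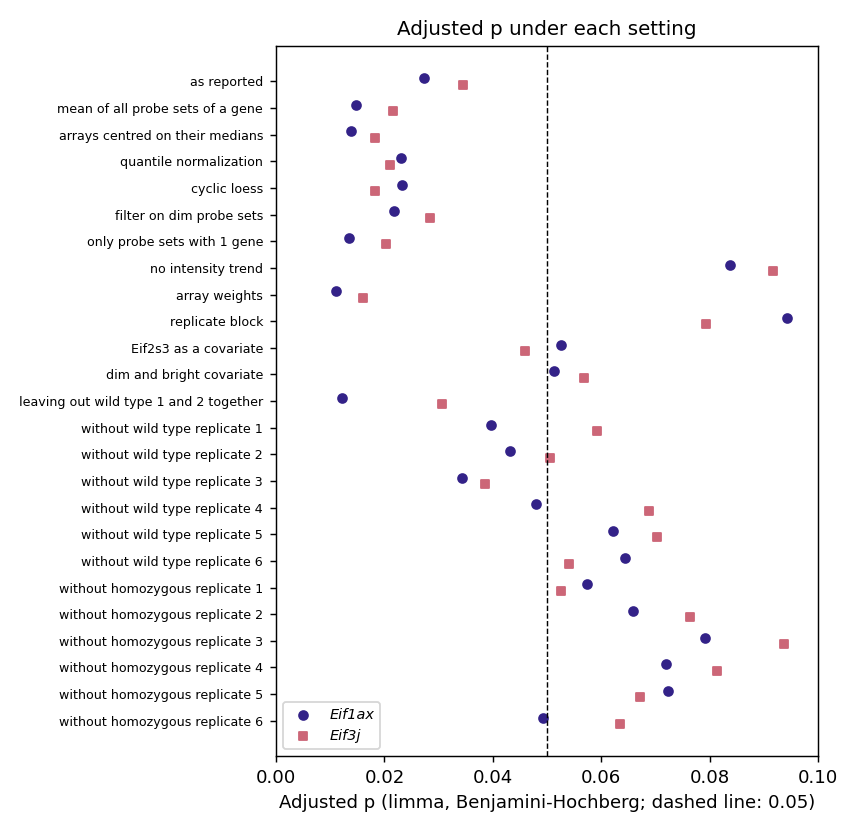
Adjusted p (horizontal axis; limma, Benjamini-Hochberg) of Eif1ax (circles) and Eif3j (squares) under each setting (vertical axis), with the threshold of 0.05 as a dashed line. As reported both lie left of the line, at 0.0273 and 0.0345; leaving out single homozygous embryos moves all but 1 of the 12 points past it.

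The stretches of 150 bases before the annotated starts of the 3 genes without overlap are shown. Whether these genes are regulated together was not tested. They are from RefSeq on GRCr8, chrX:39322024-39322173 on the minus strand for Eif1ax, chr3:129438565-129438714 on the plus strand for Eif3j and chr18:41512148-41512297 on the plus strand for Eif1a. Each is written 5′ to 3′ on the gene's own strand, with GC boxes (GGGCGG on either strand) in capitals.
Eif1ax: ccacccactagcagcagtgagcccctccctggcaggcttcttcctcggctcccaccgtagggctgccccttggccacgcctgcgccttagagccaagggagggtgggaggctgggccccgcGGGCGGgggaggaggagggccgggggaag
Eif3j: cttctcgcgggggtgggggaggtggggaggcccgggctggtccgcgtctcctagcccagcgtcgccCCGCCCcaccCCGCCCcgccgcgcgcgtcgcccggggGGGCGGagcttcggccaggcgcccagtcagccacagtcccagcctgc
Eif1a: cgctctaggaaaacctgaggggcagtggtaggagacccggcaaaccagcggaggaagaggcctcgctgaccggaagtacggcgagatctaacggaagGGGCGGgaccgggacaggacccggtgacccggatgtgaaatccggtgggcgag

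All 3 stretches were rich in G and C, at 73.3% for Eif1ax, 80.7% for Eif3j and 64.7% for Eif1a, and held 1, 3 and 1 GC boxes. The table held such a stretch for 34 of the 39 members, whose median G and C content was 64.0%, against 53.3% over 27457 genes. A GC box was found in 58.8% of the members' stretches and in 27.8% of all. The ETS core CCGGAAG, searched on both strands, was found in 32.4% of the members' stretches and in 6.24% of all, and of the 3 genes shown only Eif1a held it. The E-box CACGTG was in 8.82% and 3.93%. The letters TGACGTCA and AAGATGG were in none of the 34 stretches, and in 1.45% and 2.56% of all. These are matches of letters in 1 window for each gene. The 27457 genes were not limited to those measured on the arrays, nor to bright ones. The shares among bright genes were not counted, so these contrasts may not be particular to initiation factors.

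The other factors of start codon selection and subunit joining did not pass. Of 7 genes in this group, Eif1ax fell and 6 did not pass, and the group's median difference was -0.03, against 0.02 over all genes. Eif1b, a close relative of eIF1, stood at -0.05 ± 0.0413 (SE). Eif5, which triggers GTP hydrolysis by eIF2 at the start codon, stood at -0.03 ± 0.0206, and Eif5b, the GTPase of subunit joining, at -0.03 ± 0.0326. Eif6, which keeps the large subunit apart from the small one, read 10.43 to 10.58 in wild-type and 10.52 to 10.66 in homozygous embryos, at 0.07 ± 0.0327 (adjusted p = 0.350 in limma). Eif1ad, named after its eIF1A-like domain, stood at 0.04 ± 0.0374.

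None of the 4 genes for tRNA delivery by eIF2 and related factors passed in limma, and none had an unadjusted p under 0.05. Eif2s1, the alpha subunit that the stress kinases phosphorylate, ran from 11.89 to 12.04 in wild-type embryos (median 11.91) and from 11.80 to 11.95 in homozygous ones (median 11.88). Its difference of -0.05 ± 0.0314 (SE, adjusted p = 0.423) was within the spread of overlapping groups. Eif2s2, the beta subunit, stood at -0.06 ± 0.0508 and Eif2a, which can deliver tRNA without eIF2, at -0.10 ± 0.0641. Eif2d, another tRNA carrier used in reinitiation, stood at 0.02 ± 0.0415.

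None of the 5 subunit genes of eIF2B, the factor that stress signalling inhibits through eIF2, passed in limma, and 1 had an unadjusted p under 0.05. This was Eif2b3, the gamma subunit of the catalytic part, with wild-type values from 9.33 to 9.54 (median 9.44) and homozygous values from 9.53 to 9.63 (median 9.55). Of the 6 homozygous embryos, 5 lay above every wild-type embryo. The difference was 0.12 ± 0.0392 (SE, adjusted p = 0.179), the largest above 0 among the members. The other subunits differed in sign. The regulatory subunits were Eif2b1 at 0.10 ± 0.0652, Eif2b2 at -0.10 ± 0.0587 and Eif2b4 at -0.07 ± 0.0542, and the catalytic Eif2b5 stood at -0.03 ± 0.0363.

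Of 10 measured genes of eIF3, Eif3j fell and 9 did not pass, with a group median of -0.00261. By sign, 5 stood above and 5 below 0, but 3 and 7 with arrays centred on their medians, and 4 and 6 after quantile normalization. Eif3h ran from 11.79 to 11.93 in wild-type embryos (median 11.81) and from 11.74 to 11.81 in homozygous ones (median 11.76). Its difference was -0.07 ± 0.0270 (SE, adjusted p = 0.239), and 5 of 6 homozygous embryos lay below the wild-type range. The second, dimmer probe set of Eif3h gave -0.03 ± 0.0630.

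Eif3e, a neighbour of Eif3h in the complex, ran from 11.30 to 11.43 in wild-type embryos (median 11.38) and from 11.29 to 11.37 in homozygous ones (median 11.32), with a difference of -0.06 ± 0.0261 (adjusted p = 0.307 in limma). Eif3b, of the scaffold module, ran from 11.51 to 11.64 (median 11.55) and from 11.59 to 11.66 (median 11.62), with a difference of 0.06 ± 0.0254 (adjusted p = 0.308). In both, the groups overlapped. The core subunits Eif3a and Eif3c each stood at 0.00, with SE of 0.0352 and 0.0242. For Eif3c the 95% confidence interval of the change on the linear scale was -3.39% to 3.79%. Eif3d, which can itself bind caps, stood at -0.01 ± 0.0308, Eif3l at 0.06 ± 0.0301, Eif3k at 0.06 ± 0.0659 and Eif3i at -0.10 ± 0.0774.

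None of the 9 measured genes of the cap complex eIF4F and its helpers passed in limma, and 1 had an unadjusted p under 0.05. Eif4a1, the main RNA helicase of the complex, ran from 13.19 to 13.25 in wild-type embryos (median 13.24) and from 13.22 to 13.33 in homozygous ones (median 13.29). Of the homozygous embryos 5 of 6 lay above the wild-type range, and the difference was 0.05 ± 0.0204 (SE, adjusted p = 0.279). The related helicase Eif4a2 stood at -0.04 ± 0.0327. The helicase cofactors Eif4b and Eif4h stood at -0.05 ± 0.0230 and 0.04 ± 0.0227.

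The cap-binding protein gene Eif4e stood at -0.02 ± 0.0454 (SE), and its relatives Eif4e2 and Eif4e3 at -0.00347 ± 0.0426 and -0.01 ± 0.0568. Of the scaffold genes, Eif4g2, which lacks the cap-binding partner site, had the smallest SE of all members and stood at -0.01 ± 0.0173, and Eif4g3 stood at 0.02 ± 0.0337. For Eif4g2 the change on the linear scale was bounded by -3.28% and 1.83% (95% confidence interval).

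The inhibitors and partners of eIF4E showed no call among 3 genes in limma, and none had an unadjusted p under 0.05. Eif4ebp2, the form of 4E-BP that is prominent in brain, ran from 11.87 to 12.08 in wild-type embryos (median 11.90) and from 11.82 to 11.92 in homozygous ones (median 11.87). Its difference was -0.07 ± 0.0389 (SE, adjusted p = 0.399). Eif4ebp1 stood at -0.03 ± 0.0474 and Eif4enif1, which carries eIF4E into the nucleus, at -0.02 ± 0.0261. Eif5a, the hypusine-bearing factor that relieves stalled ribosomes, ran from 12.70 to 12.79 in wild-type embryos (median 12.75) and from 12.76 to 12.83 in homozygous ones (median 12.78). It stood at 0.05 ± 0.0217 (adjusted p = 0.337).

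**Figure D3:**
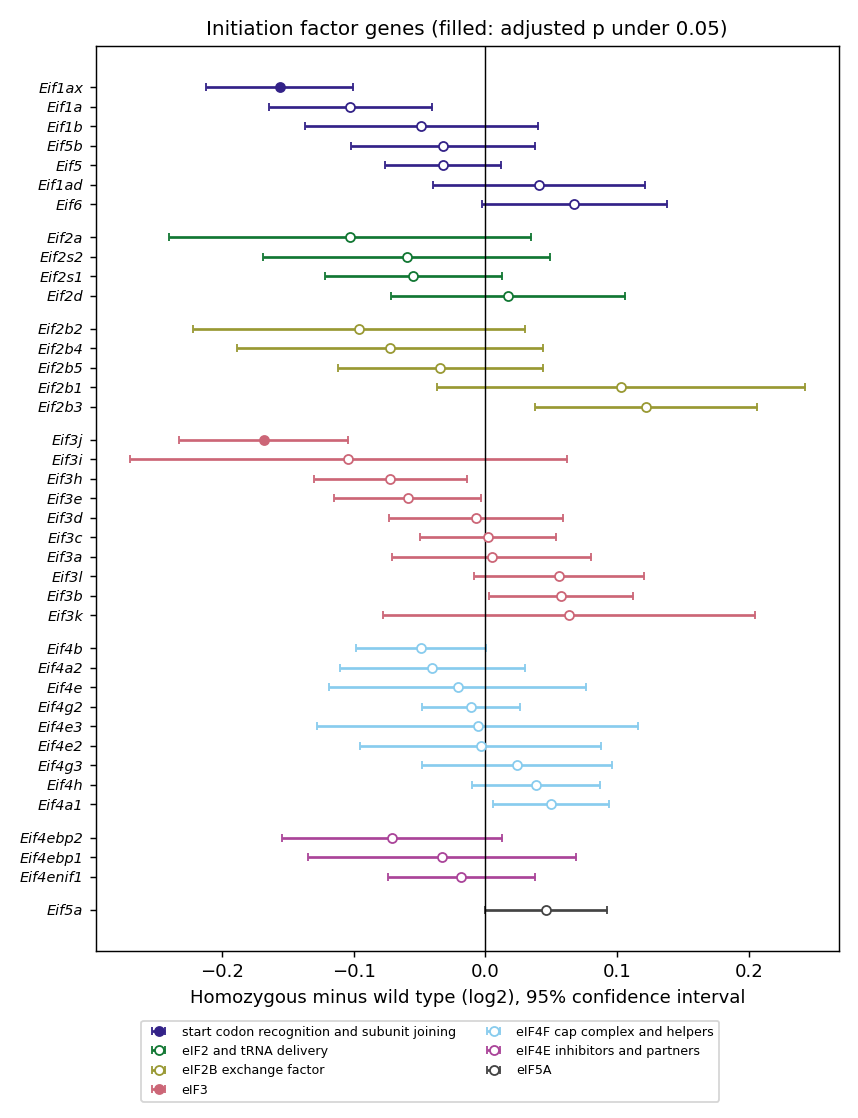
Homozygous minus wild-type difference (log2, horizontal axis) of each of the 39 genes with its 95% confidence interval, grouped by complex (colours), n = 6 embryos per genotype. The filled points, Eif1ax at -0.16 and Eif3j at -0.17, passed an adjusted p of 0.05; the other 37 genes lie between -0.10 and 0.12.

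As a set, the members ranged from -0.17 to 0.12, with a median of -0.02, while the median over all genes was 0.02. By sign, 25 of 39 members (64.1%) stood below 0, against 38.6% of all genes. The count below 0 was 20 without wild type 2 alone, 24 to 27 without any other single embryo, 19 without both wild type 1 and 2, and 21 with the dim and bright covariate. It was 29 with arrays centred on their medians, which lowers every difference by the same amount and takes Eif2d, Eif3a, Eif3c and Eif4g3 below 0. The median difference was -0.00981 without wild type 2 and -0.0331 without wild type 6. Initiation factors are brightly measured, however: 30 of the 39 lay in the brightest 25% of genes, where the median difference was 0.00 and 49.9% stood below 0. At an unadjusted p under 0.05 there were 8 members (20.5%), against 15.1% of all genes and 21.8% of those bright genes. Of these, 5 stood lower (12.8%, against 5.93% of all genes and 10.6% of those bright genes) and 3 higher (7.69%, against 9.18% of all genes). Of the bright genes, similar shares stood lower and higher at that p. The median size of a difference, whatever its sign, was 0.0486 over the members, against 0.0531 over all genes.

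The median over the members also varied within each genotype. As a deviation from the wild-type mean, it was -0.05 to 0.06 in wild-type arrays and -0.06 to 0.01 in homozygous arrays, so the groups overlapped. Wild type 2 was highest, at 0.06, and homozygous 2 and wild type 6 were lowest, at -0.06 and -0.05. The median over all genes was -0.00323 to 0.00212 in wild type and -0.01 to 0.04 in homozygous arrays. Over the bright genes it was -0.02485 to 0.0213 in wild type and -0.0161 to 0.00972 in homozygous arrays. There too, wild type 2 was highest, and wild type 6 and homozygous 2 were lowest. The order of these arrays was thus not particular to the members, whose median spanned a wider range.

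**Figure D4:**
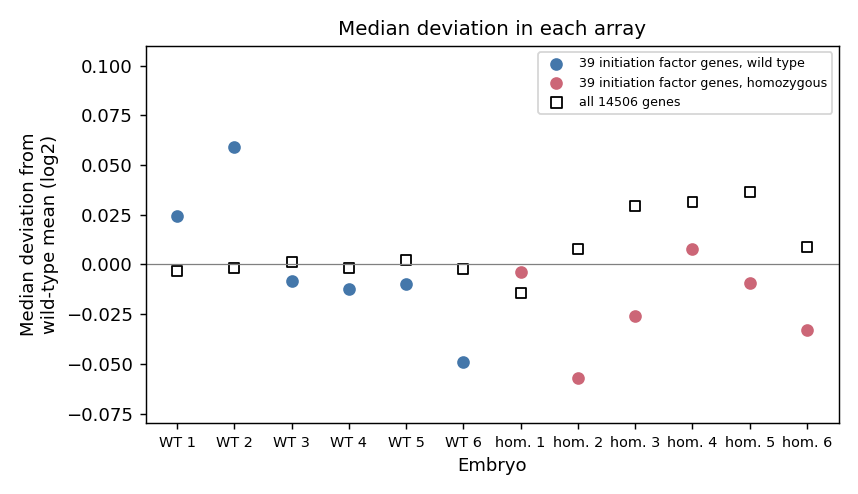
Median deviation from the wild-type mean (log2, vertical axis) in each of the 12 arrays (horizontal axis), for the 39 initiation factor genes (filled circles, blue wild type, red homozygous) and for all 14506 genes (open squares). The circles of both genotypes overlap, with wild type 2 highest at 0.06.

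Within wild type, embryos 1 and 2 stood apart together in many genes, members among them. In 14 members both of these lay above all 10 other embryos, and in 1 member, Eif2s2, both lay below them. These 15 make up 38.5% of the members, against 23.2% of all genes and 36.5% of those bright genes. The share was thus near that of the bright genes, and the pattern was not particular to the members. The 14 were spread over the complexes: Eif2s1, Eif2a, Eif2b2, Eif2b4, Eif3d, Eif3h, Eif3i, Eif3j, Eif3k, Eif1b, Eif4b, Eif4e, Eif4e2 and Eif4ebp2.

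The cap-binding gene Eif4e shows the pattern, with the limit that its pseudogenes may share its probes. It read 11.60 and 11.67 in wild type 1 and 2, from 11.40 to 11.43 in the other 4 wild-type embryos, and from 11.39 to 11.51 in the homozygous ones. Eif2s2 read 11.24 in both wild type 1 and 2, from 11.47 to 11.52 in the other 4, and from 11.30 to 11.41 in homozygous embryos. For Eif2s2 all homozygous values lay between the 2 sets of wild-type values, while for Eif4e they overlapped the lower set. The mean level of the 2 red cell genes was highest in these embryos, at 9.29 and 9.84, and that of the pallial genes was 9.67 and 9.59, within the wild-type range. Their part in this pattern was not tested.

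Without wild type 1 and 2, a setting chosen after seeing the data, 5 of 39 members passed in limma, 3 lower and 2 higher. Over all probe sets, 582 of 29214 passed there, against 124 with all arrays. The share among the bright genes was not counted. Eif1ax and Eif3j were kept at -0.15 ± 0.0252 and -0.15 ± 0.0310 (SE; adjusted p = 0.01215 and 0.0306). Eif2s2 joined them at -0.15 ± 0.0238 (adjusted p = 0.0122), and the 2 higher were Eif3k at 0.17 ± 0.0330 (adjusted p = 0.0240) and Eif2b1 at 0.20 ± 0.0452 (adjusted p = 0.0435). Wild type 1 and 2 were left out after their values in these genes were seen, so these adjusted p-values are no support for a difference. Eif2b1 read 10.87 in both embryos left out, from 10.45 to 10.69 in the other 4 wild-type embryos and from 10.69 to 10.87 in homozygous ones. Eif3k read 11.06 and 11.16 in the pair left out, from 10.68 to 10.83 in the other 4 and from 10.90 to 11.02 in homozygous embryos. The median of the members moved from -0.02 to 0.01.

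**Figure D5:**
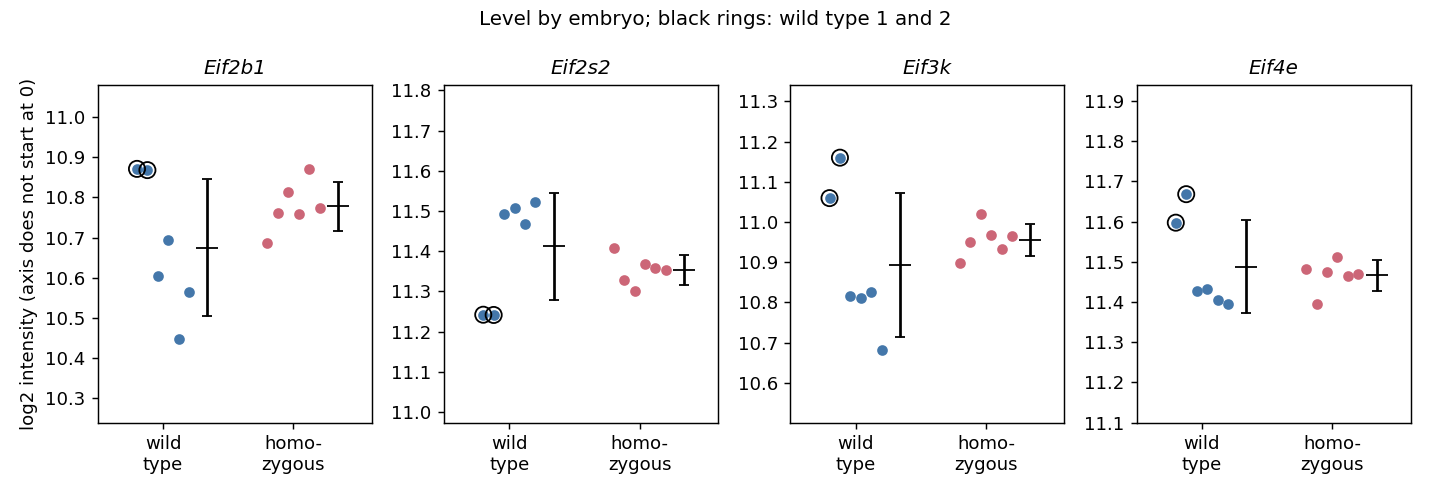
Log2 intensity (vertical axes, which do not start at 0) of Eif2b1, Eif2s2, Eif3k and Eif4e in each wild-type (blue) and homozygous (red) embryo, with mean and SD in black and rings around wild type 1 and 2. The ringed points lie near or beyond one end of the homozygous values, and the other 4 wild-type points toward the other end, with overlap for Eif2b1 and Eif4e.

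Genes that act around the initiation factors gave no call. Among 14 measured genes of the eIF2 kinases and the response downstream of them, none passed in limma. An unadjusted p under 0.05 was found for 2 of the 14, where 15.1% of all genes had one. Ddit3, a stress-induced transcription factor, read 7.91 to 8.02 in wild-type and 7.999 to 8.23 in homozygous embryos, at 0.14 ± 0.0432 (SE, adjusted p = 0.152). Eif2ak2, the kinase that senses double-stranded RNA, read 7.59 to 7.90 and 7.40 to 7.69, at -0.18 ± 0.0622 (adjusted p = 0.213). The other kinases, Eif2ak1, Eif2ak3 and Eif2ak4, stood at 0.02, 0.01 and -0.01, and Atf4, whose translation rises when eIF2 is phosphorylated, at 0.06 ± 0.0485.

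Of 15 regulators of the cap complex none passed in limma and 1 had an unadjusted p under 0.05, where 15.1% of all genes did. This was Rps6kb2, a ribosomal protein S6 kinase, at 0.09 ± 0.0368 (SE, adjusted p = 0.291), and Fmr1, a translational repressor in neurons, stood at -0.06 ± 0.0302. Of 8 helpers of scanning, reinitiation and recycling none passed and none had an unadjusted p under 0.05, with Abce1, which splits ribosomes for reuse, at -0.05 ± 0.0337 and the helicase gene Ddx1 at 0.03 ± 0.0214. Of 14 elongation and termination factors none passed in limma and 4 (3 higher, 1 lower) had an unadjusted p under 0.05, where 15.1% of all genes did. Eef1d, of the exchange factor for eEF1A, stood at 0.10 ± 0.0326 (adjusted p = 0.193) and Eef1e1 at 0.12 ± 0.0457 (adjusted p = 0.255). The lower gene was Gspt1, a termination factor, at -0.09 ± 0.0392 (adjusted p = 0.293), and Eef1a2 stood at 0.09 ± 0.0396 (adjusted p = 0.314).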

How the data were processed

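RNA of the whole ganglionic eminences of 12 embryos was hybridised to Affymetrix Rat Gene ST arrays, 1 for each embryo. The authors deposited 1 log2 intensity for each probe set and embryo. Partek 6.4 and RMA are listed in the submitters' processing notes, with no settings. RMA usually equalises arrays, so a common shift of all genes could be hidden, and array probes can compress folds. The number of arrays limited the precision: the median SE of a difference was 0.0327 over members and 0.0576 over all probe sets.

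Genotype was the only term of a linear model fitted to all 29214 probe sets (R 4.3.3, limma 3.58.1), with moderated variances that follow intensity. Embryos that share a dam could not be treated as a block. Tests were 2-sided, and p-values were adjusted by Benjamini-Hochberg across the whole table, with a threshold of 0.05. The script was tested on simulated data. Of the members, 38 matched RefSeq (GRCr8) by Entrez number and 1, Eif5, by symbol. Nothing was filtered. The members and lists were chosen with earlier results of these data known, so they are no independent support. The rule named every member, with ranges for those at an unadjusted p under 0.05 or with the smallest p of their complex, and 2 genes per other list. Ranges for Eif6, Eif2s2, Eif3k, Eif4e and Eif2b1 and the values for Atf4, Gspt1, Eef1a2 and the kinases were chosen after seeing them. Figures used matplotlib 3.10.9 in Python 3.11.15. Other settings were scalings, filters, covariates, a replicate block and leaving out arrays.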

Additional observations from a re-analysis of the deposited data

Results flagged for a closer look

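Among the 11 genes with full values, Eif1ax had 1 homozygous embryo apart from the rest of its group. Homozygous 2 read 10.97, while the other 5 read from 11.02 to 11.04, a gap of 0.689 of the group's range. In all, 22 groups of 6 embryos were looked at in this way, and chance marks about 1 in 20. Without homozygous 2 the difference of Eif1ax was -0.15 (adjusted p = 0.0658 in limma, and 0.0343 to 0.0791 over the other single embryos left out).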

How the results depend on the processing

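The number of initiation factor genes called, 2 as reported, was between 0 and 2 with 1 embryo left out. It was 0 without an intensity trend, 0 with the replicate block, 0 with the dim and bright covariate, 1 with Eif2s3 as a covariate and 5 with wild type 1 and 2 left out, a setting chosen after the data were seen. With arrays centred on their medians it was 3, Eif1a being added (adjusted p = 0.0468), and it was 2 in the other 6 settings with all embryos. The median difference of the members moved from -0.0210 to -0.0589 with centred arrays and to 0.0102 with those 2 embryos left out. It was -0.00592 with the dim and bright covariate and between -0.0331 and -0.00981 with 1 embryo left out. The replicate numbers are not stated to pair embryos: the deviations of same-numbered embryos correlated between -0.08 and 0.26, over 0.1 in 2 of 6 cases. With the block, Eif1ax had an adjusted p of 0.0941 and Eif3j of 0.0793, and 18 probe sets passed in all. Eif1ax passed in 13 of 24 other settings and Eif3j in 10, and neither changed direction in any; of the 11 genes with full values none changed direction. The cause of these moves was not tested. Over all probe sets, 124 were called as reported, 3 without a trend, 414 with array weights, 302 with centred arrays, 29 with the Eif2s3 covariate, 33 with the dim and bright covariate and between 4 and 200 with 1 embryo left out. No member with a difference smaller in size than that of Eif1ax (-0.16) was called as reported; the dimmest members, Eif4e3 and Eif3i, had mean levels of 8.06 and 8.28, near the array medians.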
